A study of Mus musculus with 6 samples.

Results

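The genes that build the ribosome were examined as a group of 40 named genes, made up of RNA polymerase I with its factors and of proteins that process and assemble ribosomal RNA in the nucleolus. Members were the rows of the expression table that carry one of these symbols. This gave 39 of the 26529 genes in the table, since Utp4 had no row under that symbol. RefSeq lists Cirh1a as an older symbol of Utp4, so the values of the Cirh1a row are given separately and enter none of the counts of members. RNA came from bone marrow-derived macrophages of wild-type C57BL/6 mice aged 8 weeks, grown in 20 ng/ml M-CSF, a growth and survival factor of macrophages, and 10 ng/ml RANKL, which induces osteoclasts. Cells were labelled osteoclasts (OC) at day 6 and osteoclast precursors (OCP) at day 3, with 3 RNA-seq libraries in each group, and both groups received the same cytokines. The labels do not tell whether replicates are separate mice or cultures, and p-values therefore cover only the spread between these libraries, which may be technical.

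Ribosome production starts in the nucleolus, where RNA polymerase I transcribes the long precursor of the ribosomal RNAs. Small nucleolar ribonucleoproteins (snoRNPs) modify and help to cut this precursor while a large set of assembly factors folds it with ribosomal proteins into the small (40S) and large (60S) subunits. Demand for new ribosomes is high in growing and dividing cells, and the transcription factor MYC is a known activator of many genes of this machinery.

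The libraries held between 33219178 and 42121216 reads assigned to genes, and the member with the fewest reads in any library still had 334. All 15 osteoclast markers fell in the libraries labelled OC. Their summed level was 2951 to 3047 RPKM in OC and 5436 to 5588 RPKM in OCP, where RPKM is reads per kilobase of exon, scaled to the reads assigned in the library. Of 15 macrophage and monocyte markers 13 could be tested, of which 10 rose and 3 fell. The libraries labelled OC thus held less of every osteoclast marker than those labelled OCP, and OC and OCP are used below only as the names in the labels. Markers of proliferation fell in 7 of 14 cases and 1 rose, with a summed level of 173 to 177 RPKM in OC and 207 to 213 RPKM in OCP. Over all tested genes 32.1% fell and 23.5% rose. The 7 lymphoid markers in the table stayed near 0 in all 6 libraries, with a summed level of 0.0332 to 0.214 RPKM, and none passed the filter. OCP replicate 2 stood apart in rows that collect ribosomal RNA reads, as given below. Of 12 tested stress and immediate early genes 9 rose and 1 fell, all 4 tested neutrophil markers rose, and the 1 tested marker of stromal, endothelial and erythroid cells did not pass. The part of these differences in the results that follow was not tested, and in bulk RNA fewer cells of a type cannot be told apart from less RNA per cell.

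Most of the ribosome biogenesis genes were lower in OC than in OCP, by small amounts. All 39 members passed the filter of 1 RPKM in at least 3 libraries. Of these, 27 fell (69.2%) and 0 rose at an adjusted p under 0.05 in limma, against 32.1% of all 12301 tested genes that fell and 23.5% that rose. At an unadjusted p under 0.05, 29 members were lower and still 0 higher, against 4293 lower and 3152 higher of all 12301 tested genes. Voom on the recovered reads called 26 members lower and 1 higher, against 25.1% and 26.9% of the genes tested by voom. The median log2 fold change of the members was -0.27, against -0.05 over all tested genes. In 30 members all 3 OC libraries lay below all 3 OCP libraries, a pattern seen in 36% of tested genes, and in 0 members did they lie above (26.7% of tested genes). The largest fall was that of Grwd1, at a ratio of means of 0.600, and 2.4% of all tested genes had a log2 fold change as low. The 39 genes together took 0.660% to 0.718% of the reads in OC and 0.835% to 0.846% in OCP. Each OC library had a lower share than each OCP library.

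**Figure D1:**
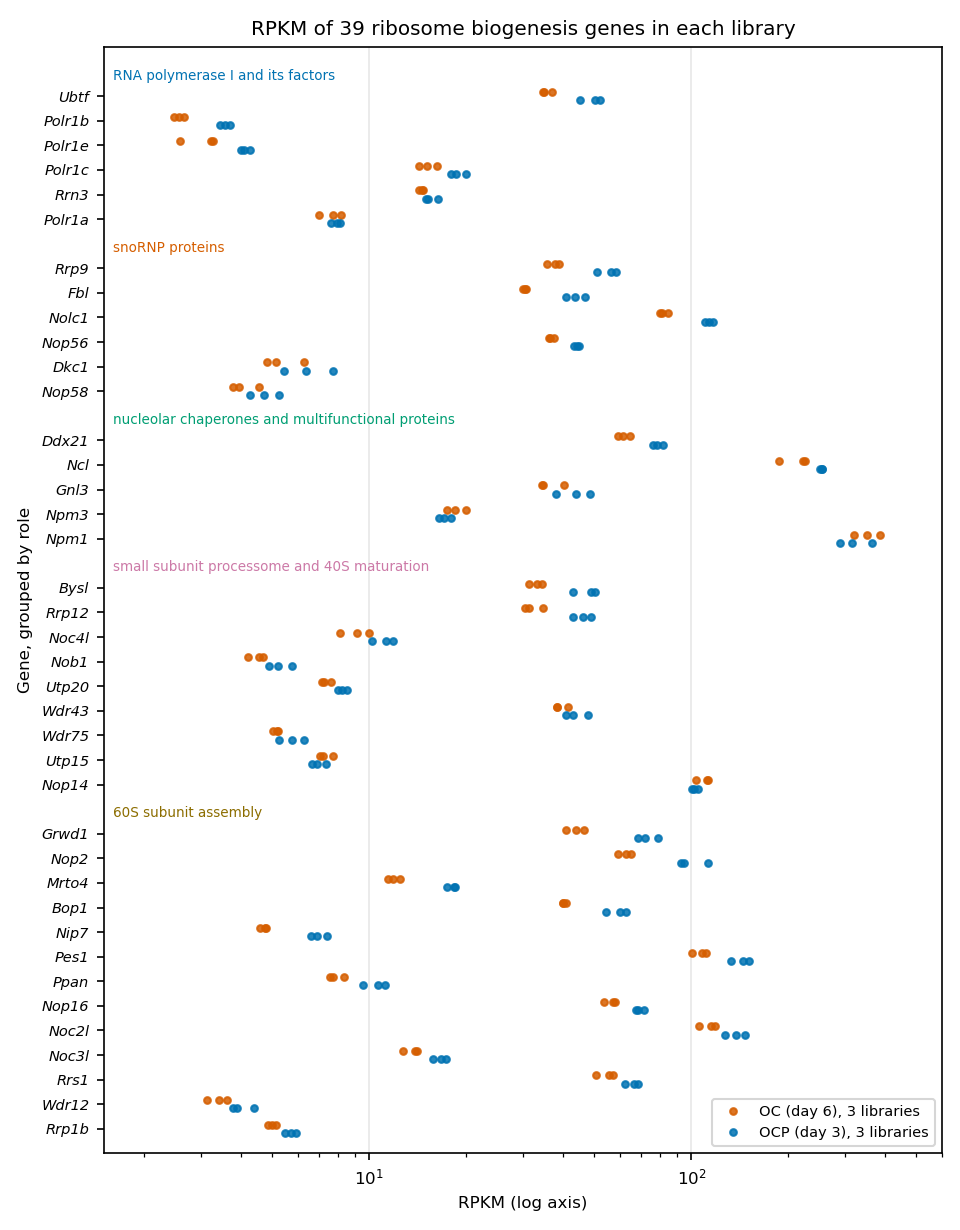
RPKM of the 39 ribosome biogenesis genes (log axis) in each of the 3 OC and 3 OCP libraries, with 1 point per library and genes grouped by role. In 30 genes the OC points all lie to the left of the OCP points, while Polr1a, Nop58, Dkc1, Npm1, Npm3, Gnl3, Nop14, Utp15 and Wdr43 overlap between the groups.

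Promoter sequence was looked up for the members because MYC binds the E-box, CACGTG, a palindrome that reads the same on both strands. RefSeq windows from 250 bases before to 50 bases after the transcription start (GRCm38.p6) were found for 35 of the 40 genes, Utp4 included. The hexamer was present in 7 of these 35 (20.0%) and in 20 of 96 other ribosome genes with a window (20.8%). It was present in 11.9% of the 8004 tested genes with a window and in 8.09% of all 27025 genes with a window. Counted by window and not by gene, it was in 7.15% of all 32851 windows. Each site is shown as 30 bases on the strand of the gene, with CACGTG in capitals, because Nop2 and Grwd1 have the largest falls of all members and Rrn3 is the only member with more than 1 site.
Nop2, chr6:125131811-125131840, plus strand: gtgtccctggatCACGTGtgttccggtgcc
Grwd1, chr7:45830740-45830769, minus strand: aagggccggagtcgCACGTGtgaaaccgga
Utp4, chr8:106893643-106893672, plus strand: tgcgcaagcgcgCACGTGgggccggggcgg
Utp20, chr10:88826765-88826794, minus strand: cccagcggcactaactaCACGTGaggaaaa
Pes1, chr11:3963965-3963994, plus strand: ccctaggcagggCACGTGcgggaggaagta
Rrn3, distal site, chr16:13780472-13780501, plus strand: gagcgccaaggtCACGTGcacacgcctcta
Rrn3, proximal site, chr16:13780639-13780668, plus strand: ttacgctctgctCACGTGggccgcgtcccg
Wdr43, chr17:71616220-71616249, plus strand: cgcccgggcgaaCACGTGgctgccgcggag

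The single hexamer of Nop2 began 60 bases before the start, and those of Rrn3 began 215 and 48 bases before it. The 250 bases before the start are shown for both genes, the first with a large fall and the second without a call.
Nop2, chr6:125131633-125131882, plus strand: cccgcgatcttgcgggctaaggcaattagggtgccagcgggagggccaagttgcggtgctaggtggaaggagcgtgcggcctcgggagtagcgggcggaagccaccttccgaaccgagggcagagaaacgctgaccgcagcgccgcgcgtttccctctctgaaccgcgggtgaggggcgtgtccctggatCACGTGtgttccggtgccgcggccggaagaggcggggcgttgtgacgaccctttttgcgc
Rrn3, chr16:13780449-13780698, plus strand: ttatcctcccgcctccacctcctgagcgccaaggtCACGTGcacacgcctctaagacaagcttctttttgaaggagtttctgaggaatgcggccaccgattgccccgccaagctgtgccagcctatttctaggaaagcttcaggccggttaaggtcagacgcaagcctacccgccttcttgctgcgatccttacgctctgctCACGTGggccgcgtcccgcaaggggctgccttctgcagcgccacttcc

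Without Utp4, 4 of the 6 members with the hexamer fell (median log2 fold change -0.29), and of the 28 members with a window that lacks it 19 fell (median -0.27). Of all 12301 tested genes 32.1% fell, and this share was not split by the hexamer. A match is only a description of the letters in this window, and members with and without it were not tested against each other.

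Genes of RNA polymerase I and its factors fell in 4 of 6 cases (66.7%, against 32.1% of all tested genes). Ubtf, the factor that binds ribosomal DNA along the promoter and the transcribed region, had the largest fall (chromosome 11, 102304560 to 102311500, minus strand). It had 34.9, 37.0 and 34.6 RPKM in OC, against 45.2, 52.1 and 50.04 RPKM in OCP (log2 fold change -0.46, SE 0.06, adjusted p = 0.00043). Polr1b, the second largest subunit of the polymerase, had 2.57, 2.66 and 2.47 RPKM in OC, against 3.56, 3.70 and 3.45 RPKM in OCP (-0.36, SE 0.06, adjusted p = 0.0012). Polr1e had 3.22, 2.58 and 3.27 RPKM in OC, against 3.996, 4.08 and 4.26 RPKM in OCP (-0.35, SE 0.08, adjusted p = 0.0064). In these 3 genes every OC library lay below every OCP library, as in 36% of all tested genes. Polr1c, a subunit shared with RNA polymerase III, also fell (-0.29, adjusted p = 0.0051), to 15.2 ± 0.998 RPKM in OC against 18.8 ± 1.05 RPKM in OCP (SD, n = 3 per group).

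The 2 other members of this set did not pass. Polr1a, the largest subunit, had 7.71, 8.19 and 6.9998 RPKM in OC, against 7.93, 8.11 and 7.58 RPKM in OCP, so that the groups overlapped (-0.04, SE 0.07, adjusted p = 0.62). Rrn3, which recruits the polymerase to its promoter, had 14.6, 14.6 and 14.3 RPKM in OC, against 16.4, 15.3 and 15.0 RPKM in OCP (-0.09, SE 0.05, adjusted p = 0.15), with no overlap between the groups. Among the other genes of this polymerase, from a separate list of 9 of which 8 were tested, 1 fell (12.5%) and 3 rose (37.5%). Over all tested genes these shares were 32.1% and 23.5%. Polr1d, the partner of Polr1c, fell to 37.6 ± 2.04 RPKM in OC against 47.3 ± 0.939 RPKM in OCP. The rises were in Taf1d and Taf1a, subunits of the promoter selectivity factor SL1, and in Ttf1, the transcription termination factor. Taf1d had 12.4 ± 1.37 RPKM in OC and 6.02 ± 0.890 RPKM in OCP (log2 fold change 0.93, adjusted p = 0.00022), and Ttf1 had 7.11 ± 0.229 RPKM in OC and 5.16 ± 0.126 RPKM in OCP (0.40, adjusted p = 0.00042). Taf1a had 3.17 ± 0.219 RPKM in OC and 2.63 ± 0.0396 RPKM in OCP (0.20, adjusted p = 0.027), a call that was lost after the correction for GC content described below (adjusted p = 0.086). Taf1b, Polr1f (listed as Twistnb), Polr1g (Cd3eap) and Polr1h (Znrd1) did not pass, with log2 fold changes between -0.10 and 0.13. Taf1c, the gene of this list that did not pass the filter, had 0.724 ± 0.231 RPKM in OC and 1.10 ± 0.193 RPKM in OCP. The groups overlapped, and voom on the recovered reads called it lower (-0.57, adjusted p = 0.022). Of 5 subunits shared between the nuclear RNA polymerases 3 fell (60%, against 32.1% of all tested genes). Polr2f had the largest change, with 77.7 ± 7.06 RPKM in OC and 139 ± 6.10 RPKM in OCP.

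**Figure D2:**
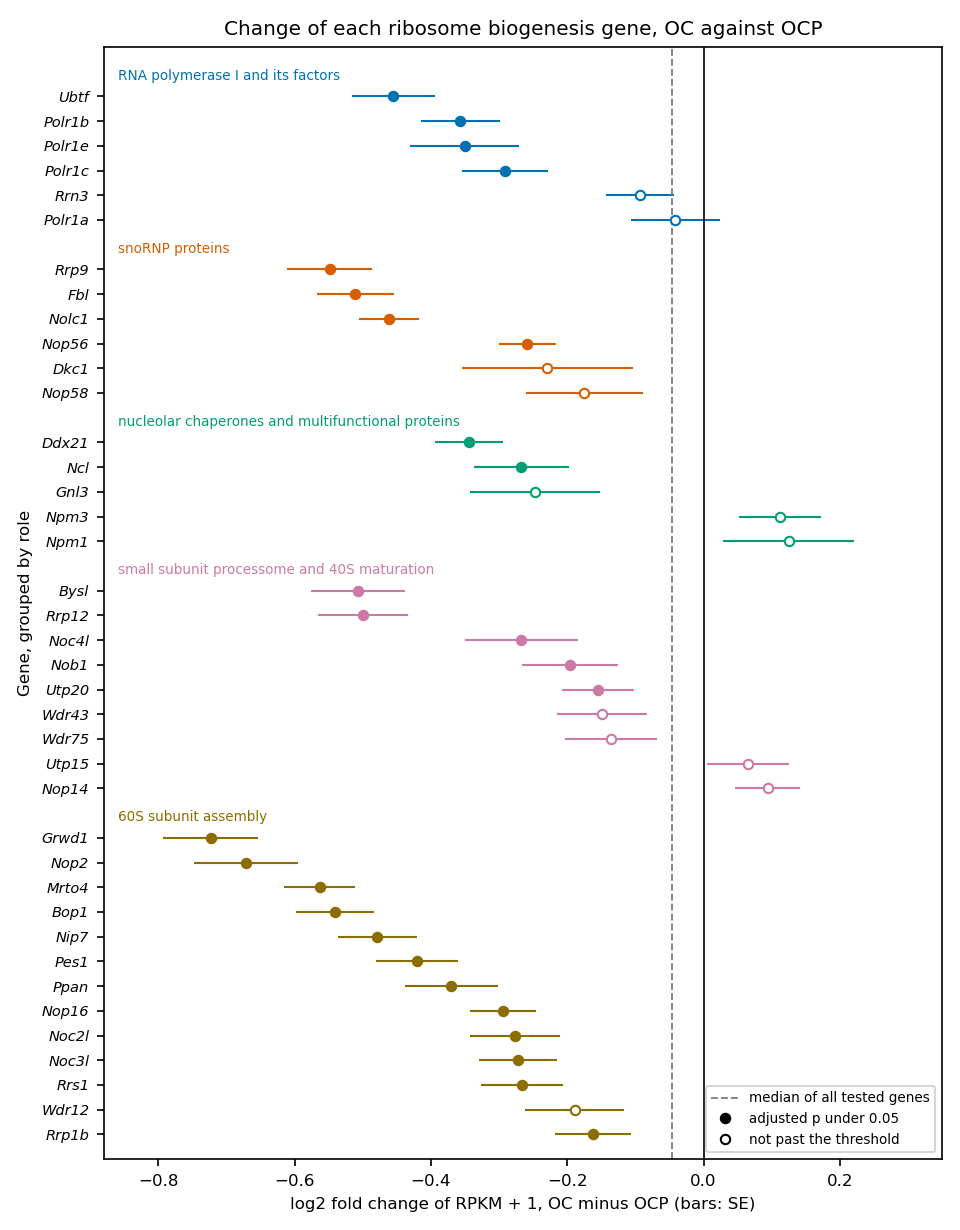
Log2 fold change of RPKM + 1, OC minus OCP, of each of the 39 genes with its SE, grouped by role. Filled points passed an adjusted p of 0.05 and the dashed line is the median of all tested genes (-0.05). The 60S assembly factors all lie below 0, and the 4 points above 0 are Npm1, Npm3, Nop14 and Utp15, none of which passed.

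Genes of snoRNP proteins fell in 4 of 6 cases (66.7%, against 32.1% of all tested genes). Rrp9, a protein of the U3 particle that is needed for the early cuts of the precursor, had 38.8, 37.9 and 35.5 RPKM in OC, against 50.9, 58.3 and 56.4 RPKM in OCP (-0.55, SE 0.06, adjusted p = 0.00018). Fbl encodes fibrillarin, the methyltransferase of the box C/D particles. It had 30.6, 29.97 and 30.4 RPKM in OC, against 40.7, 43.4 and 46.8 RPKM in OCP (-0.51, SE 0.06, adjusted p = 0.00016). The row of Fbl had 3 similar transcripts in other rows, 1 of them the pseudogene Gm5812 at up to 16.2 RPKM, so its level is uncertain where reads could be shared. Nolc1, a chaperone of snoRNPs, had 81.1, 84.7 and 80.2 RPKM in OC, against 109.9, 114 and 116 RPKM in OCP (-0.46, SE 0.04, adjusted p = 7.2e-05). In each of these 3 genes the highest OC library was below the lowest OCP library, as in 36% of all tested genes.

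The genes of the core proteins of the box C/D particle did not all pass. Nop56 fell to 36.6 ± 0.713 RPKM in OC, against 44.0 ± 0.766 RPKM in OCP (-0.26, adjusted p = 0.0011). Nop56 shares 1.71% to 2.44% of its exon length with each of the same strand genes Gm23187, Gm23650, Gm24451 and Snord57, so its count is uncertain there. Its partner Nop58 had 3.76, 3.94 and 4.55 RPKM in OC, against 5.23, 4.27 and 4.72 RPKM in OCP, where the groups overlapped (-0.17, SE 0.09, adjusted p = 0.12). Dkc1 encodes dyskerin, the pseudouridine synthase of the box H/ACA particles, and had 5.12, 4.80 and 6.26 RPKM in OC, against 7.73, 5.45 and 6.37 RPKM in OCP (-0.23, SE 0.13, adjusted p = 0.16). The genes of the other H/ACA core proteins, from the separate list, all fell. Nop10 had 8.11 ± 0.462 RPKM in OC and 15.4 ± 1.09 RPKM in OCP (-0.85, adjusted p = 2.6e-05), Nhp2 had 70.4 ± 4.26 RPKM in OC and 109.9 ± 3.23 RPKM in OCP (-0.64, adjusted p = 4.1e-05), and Gar1 had 13.6 ± 0.635 RPKM in OC and 18.1 ± 1.02 RPKM in OCP (-0.39, adjusted p = 0.00074). In that list of 11 snoRNP genes 8 fell (72.7%) and 1 rose (9.09%), against 32.1% and 23.5% of all tested genes. The one that rose was Nufip1, a snoRNP assembly factor, with 12.5 ± 0.451 RPKM in OC and 10.9 ± 0.748 RPKM in OCP (0.18, adjusted p = 0.035), and it did not pass after the correction for GC content (adjusted p = 0.1).

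Genes of small subunit factors were mixed. Of 9 members of the small subunit processome and of 40S maturation 5 fell (55.6%, against 32.1% of all tested genes) and 4 did not pass. Bysl, a 40S assembly factor, had 33.2, 34.3 and 31.3 RPKM in OC, against 42.8, 50.2 and 48.8 RPKM in OCP (-0.51, SE 0.07, adjusted p = 0.00044). Of its exon length 9.37% overlaps the opposite strand gene Ccnd3, and no source used here gives whether reads were counted by strand, which leaves the counts of both genes uncertain there. Rrp12, which acts in export of pre-ribosomal particles, had 31.4, 34.6 and 30.5 RPKM in OC, against 42.9, 48.8 and 46.1 RPKM in OCP (-0.50, SE 0.07, adjusted p = 0.0004). Both genes had every OC library below every OCP library, as did 36% of all tested genes.

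The 3 other called members of this set had smaller changes. Noc4l had 9.99, 8.09 and 9.18 RPKM in OC, against 10.2, 11.9 and 11.3 RPKM in OCP (-0.27, SE 0.08, adjusted p = 0.026). Utp20 (-0.15, adjusted p = 0.036) and Nob1, the nuclease that makes the final cut of the 18S rRNA (-0.20, adjusted p = 0.045), were also lower. All 3 calls were lost with TMM scaling (adjusted p 0.06 to 0.15) and under other alternatives, some of which left out 1 library. Without OC replicate 2 none of the 3 passed, and the same was true without OCP replicate 3.

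The UTP-A complex, which binds the nascent precursor and also acts in its transcription, is represented by Utp15, Wdr43, Wdr75 and Utp4. Utp15 had 7.19, 7.02 and 7.73 RPKM in OC, against 7.32, 6.89 and 6.63 RPKM in OCP (0.07, SE 0.06, adjusted p = 0.39). Wdr43 (-0.15, adjusted p = 0.09) and Wdr75 (-0.14, adjusted p = 0.12) did not pass either. The row listed as Cirh1a, which is Utp4 in RefSeq, had 9.16, 8.80 and 8.196 RPKM in OC, against 10.4, 10.4 and 10.1 RPKM in OCP (-0.22, SE 0.05, adjusted p = 0.011). Nop14, another processome protein, had 104, 112 and 112 RPKM in OC, against 102, 100.3 and 105 RPKM in OCP (0.09, SE 0.05, adjusted p = 0.13). With TMM scaling this value passed as higher in OC (adjusted p = 0.027). In the separate list of 40 tested small subunit genes 19 fell (47.5%) and 1 rose (2.5%), against 32.1% and 23.5% of all tested genes. Dhx37, a helicase that releases the U3 RNA, had 9.43 ± 0.685 RPKM in OC and 15.2 ± 1.37 RPKM in OCP, and Rcl1 was the one that rose, with 7.30 ± 0.0457 RPKM in OC and 6.22 ± 0.629 RPKM in OCP.

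Genes of 60S assembly factors fell in 12 of 13 cases (92.3%, against 32.1% of all tested genes). All 13 had every OC library below every OCP library, as did 36% of all tested genes. Grwd1, a WD repeat protein whose yeast relative chaperones a protein of the large subunit, had 43.9, 46.5 and 40.7 RPKM in OC, against 68.1, 78.9 and 71.5 RPKM in OCP (-0.72, SE 0.07, adjusted p = 7.6e-05). It lies on the minus strand of chromosome 7 (45825223 to 45830944). Nop2, a methyltransferase of the 28S rRNA on chromosome 6 (125131909 to 125144753, plus strand), had 62.6, 65.0 and 59.1 RPKM in OC, against 92.9, 112 and 95.0 RPKM in OCP (-0.67, SE 0.08, adjusted p = 0.00019). Mrto4, which holds the place of the ribosomal stalk in the maturing subunit, had 12.5, 11.4 and 11.9 RPKM in OC, against 17.4, 18.5 and 18.4 RPKM in OCP (-0.56, SE 0.05, adjusted p = 6.3e-05). These were the 3 members with a ratio of means under 0.67.

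Pes1, Bop1 and Wdr12 form the PeBoW complex, which is needed to process the precursor of the 28S and 5.8S rRNAs. Bop1 had 39.97, 40.8 and 39.9 RPKM in OC, against 54.5, 62.6 and 60.2 RPKM in OCP (-0.54, SE 0.06, adjusted p = 0.00012). Pes1 had 108, 111 and 101 RPKM in OC, against 133, 151 and 145 RPKM in OCP (-0.42, SE 0.06, adjusted p = 0.00061). Wdr12 had 3.13, 3.61 and 3.42 RPKM in OC, against 4.37, 3.76 and 3.88 RPKM in OCP, and was the one gene of this set that did not pass (-0.19, SE 0.07, adjusted p = 0.056). Its level is set over an exon length of 11955 bases in the table, against 2476 bases for Bop1 and 3024 bases for Pes1, and RPKM divides by that length.

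The genes of the remaining 60S factors fell by 0.16 to 0.48 on the log2 scale. Nip7, known from yeast as a factor of large subunit assembly, was at the large end, at 4.71 ± 0.105 RPKM in OC and 6.96 ± 0.393 RPKM in OCP (adjusted p = 0.00026). Ppan (-0.37), Nop16 (-0.29), Noc2l (-0.28), Noc3l (-0.27) and Rrs1 (-0.27), which helps to load the 5S particle, had adjusted p between 0.0012 and 0.0081. Of the exon length of Noc2l 20.9% overlaps the opposite strand gene Samd11, and its count is uncertain to that extent. Rrp1b was the smallest call (-0.16, SE 0.06, adjusted p = 0.038). It was lost without any 1 of the 6 libraries (adjusted p 0.055 to 0.11). In the separate list of 49 genes of 60S assembly 28 fell (57.1%) and 3 rose (6.12%), against 32.1% and 23.5% of all tested genes. Wdr74 had 18.6 ± 1.54 RPKM in OC and 32.9 ± 2.09 RPKM in OCP (-0.79, adjusted p = 5.4e-05), and Sdad1 had 10.8 ± 0.238 RPKM in OC and 9.06 ± 0.190 RPKM in OCP (0.23, adjusted p = 0.0037).

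Genes of chaperones and multifunctional proteins of the nucleolus fell in 2 of 5 cases (40%), a share near the 32.1% of all tested genes that fell. Ddx21, a helicase that links RNA polymerase I transcription with rRNA processing, had 59.1, 61.5 and 64.5 RPKM in OC, against 75.9, 81.5 and 78.3 RPKM in OCP (-0.34, SE 0.05, adjusted p = 0.00065). Ncl encodes nucleolin and had 188, 225 and 222 RPKM in OC, against 255, 255 and 252 RPKM in OCP (-0.27, SE 0.07, adjusted p = 0.012). OC replicate 1 was the low library for Ncl, and the groups did not overlap. Gnl3, which encodes nucleostemin, a GTPase, had 34.3, 34.5 and 40.1 RPKM in OC, against 48.3, 38.1 and 43.8 RPKM in OCP (-0.25, SE 0.10, adjusted p = 0.058).

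The 2 nucleophosmins did not pass. Npm1, the nucleolar histone and ribosome chaperone, was the member with the highest RPKM and had 319, 350.1 and 384 RPKM in OC, against 363, 289.6 and 315 RPKM in OCP (0.13, SE 0.10, adjusted p = 0.3). It has 7 similar pseudogene rows, which reach 24.3 RPKM in Gm14681, so its level is uncertain where reads could be shared. Npm3 had 18.5, 19.9 and 17.5 RPKM in OC, against 17.0, 16.5 and 17.9 RPKM in OCP (0.11, SE 0.06, adjusted p = 0.15). Both overlapped between the groups, and Npm3 passed as higher in OC with TMM scaling (adjusted p = 0.047) and with the correction for base composition described next (adjusted p = 0.015).

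The members differed in the base composition of their transcripts, from 40.1% GC in Npm1 to 59.4% in Noc4l, and GC content moved with their values in the libraries. Of the 22 members above the median GC content of tested genes (50.8%), 21 fell, against 42% of the 5972 tested genes above it. Of the 17 members at or below it, 6 fell, against 22.2% of the tested genes there. Across the 39 members the Spearman correlation of GC content with the log2 fold change was -0.59, against -0.24 over 11944 tested genes. Genes of 1 sample share library and depth, and these values are descriptions.

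GC content also moved with 3 of 4 differences between libraries of 1 group. For OCP replicate 2 minus OCP replicate 1 the correlation was 0.80 across the members and 0.60 across the tested genes, and for OC replicate 3 minus OC replicate 1 it was -0.71 and -0.42. For OCP replicate 3 minus OCP replicate 1 it was 0.78 and 0.43, whereas for OC replicate 2 minus OC replicate 1 it was close to 0, at -0.11 and -0.05. Dkc1, with 44.9% GC, had 5.45 RPKM in OCP replicate 2 and 7.73 RPKM in OCP replicate 1, whereas Nop2, with 55.9% GC, had 112 and 92.9 RPKM in the same libraries. After a smooth curve of each library on GC content was removed, 32 of the 39 members were lower in OC and 1, Npm3, was higher, against 34.6% and 24.9% of 11944 tested genes. The median log2 fold change of the members was then -0.30. The 7 members that became lower were Rrn3, Nop58, Dkc1, Gnl3, Wdr43, Wdr75 and Wdr12, and those no longer called were Noc4l and Nob1. Polr1a, Npm1, Nop14 and Utp15 did not pass in either fit. The curve also removes any GC trend that differs between OC and OCP.

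**Figure D3:**
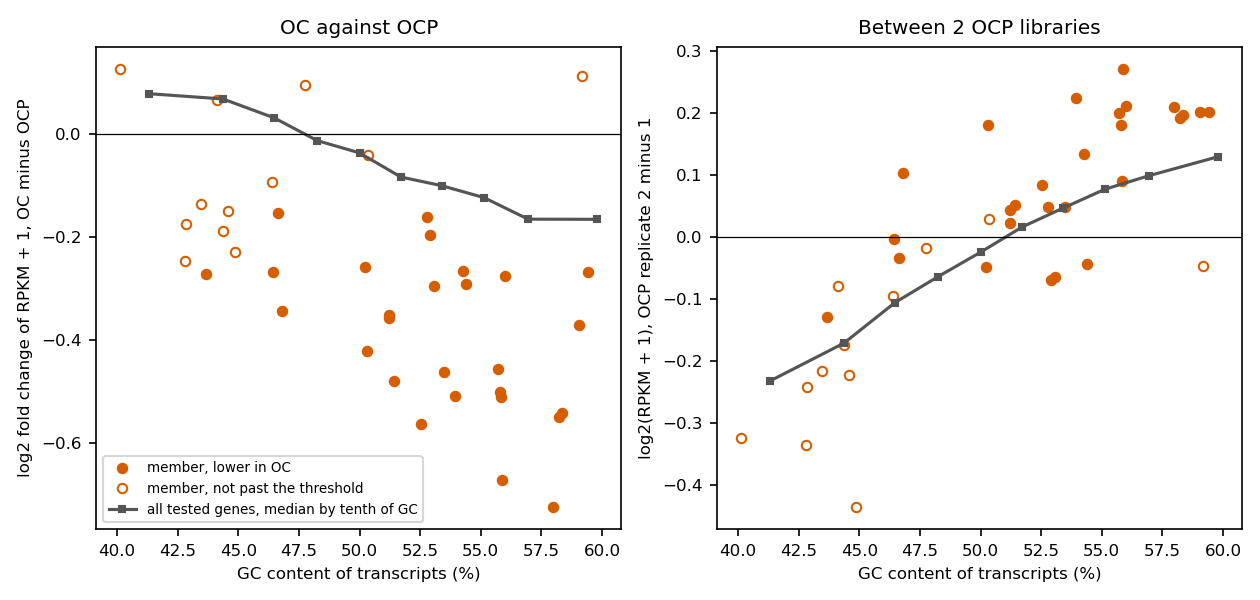
GC content of the transcripts of each of the 39 genes against its log2 fold change, OC minus OCP (left), and against the difference of log2(RPKM + 1) between OCP replicates 2 and 1 (right). The line joins the medians of all tested genes in 10 bins of GC content, which run from 0.08 to -0.17 on the left and from -0.23 to 0.13 on the right.

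Ribosome genes outside the 39 also fell more often than they rose. The 5 other lists of RNA polymerase I, shared subunits, snoRNPs, small subunit and 60S factors held 113 tested genes. Of these 59 fell (52.2%) and 8 rose (7.08%), against 32.1% and 23.5% of all tested genes. Their median log2 fold change was -0.20, against -0.05 over all tested genes. The share of the 39 that fell was not tested against the share of these 113. Of 13 rows or names for ribosomal and similar structural RNAs 6 were in the table. AY036118 had 1156, 1115 and 1059 RPKM in OC, against 903, 2200.5 and 1264 RPKM in OCP, and Gm42418 had 646, 628 and 590.1 RPKM in OC, against 506, 1218 and 699 RPKM in OCP. OCP replicate 2 was the high library in both, and neither row passed (adjusted p = 0.45 and 0.46). Of the remaining rows of this kind Gm26917 (adjusted p = 0.11), Rn7sk (0.076) and the mitochondrial mt-Rnr1 (adjusted p = 0.053) did not pass, and mt-Rnr2 fell to 26.7 ± 2.41 RPKM in OC, against 35.7 ± 3.76 RPKM in OCP (adjusted p = 0.0062). Without OCP replicate 2, 29 of the 39 members were called lower and 0 higher, against 3688 and 2567 of all 12301 tested genes.

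**Figure D4:**
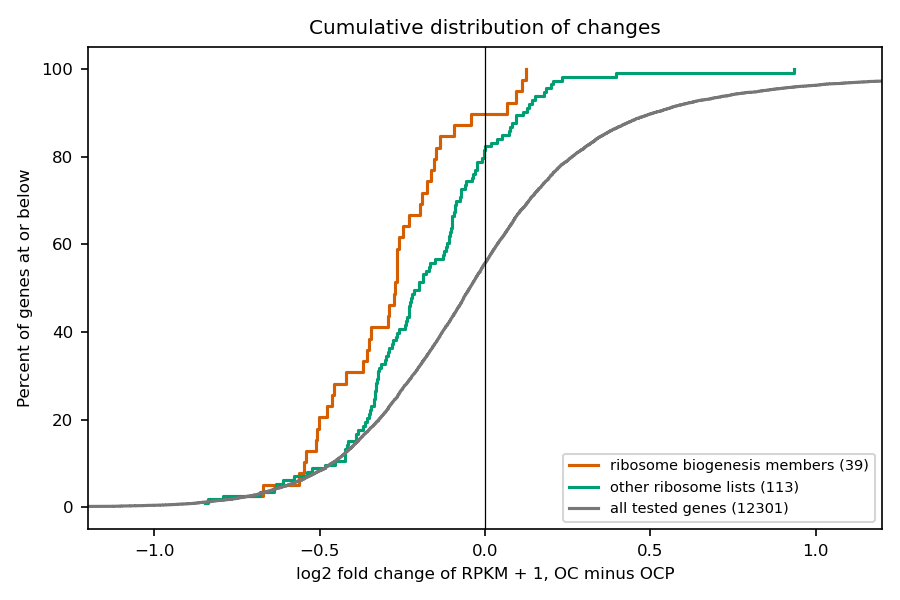
Cumulative distribution of the log2 fold change of RPKM + 1, OC minus OCP, for the 39 ribosome biogenesis genes, for 113 tested genes of the other ribosome lists and for all 12301 tested genes. At 0 the curve of the 39 genes stands above the others, with 35 of 39 genes below 0, against 93 of 113 and 6847 of 12301.

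Of 24 tested regulators of ribosome synthesis 6 were higher and 6 lower in OC (25% each), shares near the 23.5% and 32.1% of all tested genes. Myc had 5.60 ± 0.668 RPKM in OC and 7.72 ± 0.438 RPKM in OCP (-0.41, adjusted p = 0.0036), and its partner Max had 42.9 ± 1.71 RPKM in OC and 49.98 ± 0.844 RPKM in OCP (-0.22, adjusted p = 0.0047). Mycn, a relative of Myc, had 1898, 1733 and 2033 reads in the OC libraries and 0, 0 and 2 reads in the OCP libraries. The MAX partners that oppose MYC, Mnt (-0.04, adjusted p = 0.7) and Mxd1 (0.11, adjusted p = 0.13), did not pass. Mdm2, which restrains p53 and is itself bound by free ribosomal proteins, had 56.9 ± 2.74 RPKM in OC and 33.8 ± 2.43 RPKM in OCP (0.74, adjusted p = 4.1e-05), the largest rise of this list after Mycn. Cdkn2a, whose product Arf acts in the nucleolus, had the largest fall, with 0.613 ± 0.314 RPKM in OC and 1.70 ± 0.182 RPKM in OCP (-0.76). Its values lay near the filter of 1 RPKM, which it passed only through the OCP libraries. Mycn passed the filter only through the OC libraries. The calls of these genes follow in part from the filter, and their values are descriptions.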

How the data were processed

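The authors deposited 1 table of RPKM values for 3 OC and 3 OCP libraries. The tools named in the submitters' processing notes are Trimmomatic 0.36, STAR 2.5.3a and featureCounts, and per the labels a stranded mRNA kit was used; the sources used here give neither the strand setting nor the treatment of multi-mapped reads. The notes name GRCh38, but the coordinates are those of mouse genes: 29 of 39 members had the same start and end in GENCODE M21 (GRCm38). RPKM times length gave whole reads for 100% of values within 0.01 reads.

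Genes reaching 1 RPKM in 3 or more libraries were tested as log2(RPKM + 1) in limma 3.58.1 (R 4.3.3, statmod 1.5.0), trend and robust, OC minus OCP, two-sided, Benjamini-Hochberg over all tested genes, threshold 0.05. The pseudocount understates changes of low genes. The steps were also run on simulated reads without a GC trend between libraries, so that run does not cover the trend seen here. GC content is the mean over GENCODE M21 transcripts and was available for 97.1% of tested genes and all members. Similar transcripts were found with blastn 2.17.0 (at least 85% identity, 50% of the length and 200 bases). Tables and plots were made in Python 3.11.15 with matplotlib 3.10.9, pandas 2.3.3 and numpy 2.4.6. Counts of the libraries within a group were not within sampling noise of each other (chi-square over its degrees of freedom, 5.18 to 21.4).

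The members and lists were chosen with earlier results of these data known. Values per library are given for up to 3 called members of each role group with the largest change and for those that went against it; in other lists the called genes with the largest rise and fall are named, with all tested genes of the RNA polymerase I and rRNA lists and 5 regulators. Further members were shown by library beside their complex or where their groups overlapped, and Gar1, Nhp2, Polr3gl and Taf1c were named after their values were seen. Other settings tried were TMM factors, quantile normalization, limma without trend and robust, pseudocounts of 0.01 and 0.1, a filter on the mean (5 RPKM), no filter, the replicate number as a block, leaving out each library, and voom on the recovered reads; the GC correction (spline with 5 degrees of freedom) was added after seeing the data.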

Additional observations from a re-analysis of the deposited data

How the results depend on the processing

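Of the 27 members lower in OC, 21 were lower under all 16 alternatives in which they were tested, and no member that passed changed its direction. The count of lower members ran from 23 (no filter, and TMM factors) to 32 (GC correction), and from 23 to 29 when 1 library was left out. Lower counts over all tested genes were 3726 of 26529 with no filter, 3274 of 12301 with TMM factors and 4134 of 11944 with the GC correction. With 1 library left out they ran from 3370 to 3784 of 12301. The exceptions among the 27 members were Noc4l, Utp20, Nob1 and Rrp1b, which lost their call in several settings, the cause of which was not tested. The other 2 of the 27, Polr1b and Polr1e, were lower in all 15 settings that tested them. Members higher in OC numbered 1 after quantile normalization (Nop14), 2 with TMM factors (Npm3 and Nop14), 1 by voom (Nop14) and 1 with the GC correction (Npm3), against 0. With TMM factors the median of the members was -0.21 and that of all tested genes 0.007, against -0.27 and -0.05 in the main fit. All tested genes then split into 3439 higher and 3274 lower, against 2889 and 3954. Where the filter was a mean of 5 RPKM, 1645 of only 7228 tested genes rose. In the 5 other ribosome lists 4 genes were higher with no filter and 5 with the GC correction, against 8. With 1 library left out 3 to 7 of these genes were higher. Higher counts over all tested genes were 3240 of 26529 with no filter and 2972 of 11944 with the GC correction. With 1 library left out they ran from 2524 to 2932 of 12301. The cause of the moves in these lists was not tested. Correlations of the deviations of same-numbered libraries were -0.11, 0.14 and 0.01, against -0.28 to 0.26 for the other pairs. With 3 libraries a group, these values do not decide whether the replicate numbers pair the libraries. The fit with the replicate number as a block gave 25 lower members and 5 higher genes among the 113 of the other lists. In that fit 3851 of all 12301 tested genes were lower and 2827 were higher. At this depth and with 3 libraries a group, the smallest member change that passed was -0.15 on the log2 scale.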

Other observations

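Of 21 tested genes of the RNA exosome and of RNase MRP, which trim and cut precursors of ribosomal RNA, 8 fell (38.1%) and 1 rose (4.76%), against 32.1% and 23.5% of all tested genes, with a median log2 fold change of -0.15. Pop7, a protein of RNase MRP, had 13.2 ± 1.44 RPKM in OC and 24.8 ± 1.57 RPKM in OCP (-0.87, SE 0.08, adjusted p = 7.2e-05). The one that rose was the exonuclease Xrn2, with 42.8 ± 2.97 RPKM in OC and 35.3 ± 3.46 RPKM in OCP (0.28, SE 0.08, adjusted p = 0.017).

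RNA polymerase III makes the 5S rRNA and the tRNAs. Of 20 tested genes of this polymerase and its factors 7 fell (35%) and 2 rose (10%), the share that fell being near the 32.1% of all tested genes, with a median log2 fold change of -0.05, against -0.05 over all tested genes. Gtf3c5, a subunit of the factor TFIIIC, had 8.05 ± 0.204 RPKM in OC and 11.8 ± 0.407 RPKM in OCP (-0.50, SE 0.05, adjusted p = 9.5e-05). Polr3g, a subunit with an alternative form encoded by Polr3gl, had 2.43 ± 0.0599 RPKM in OC and 1.59 ± 0.271 RPKM in OCP (0.41, SE 0.08, adjusted p = 0.0039), and Polr3gl itself had 29.4 ± 1.13 RPKM in OC and 26.1 ± 1.73 RPKM in OCP (0.17, adjusted p = 0.042).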
